A study of Mus musculus with 9 samples.

Results

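Collagen chain genes encode the alpha chains of the collagens, and they were taken as every gene of the deposited table whose mouse symbol is Col, a number, a, a number, and nothing more. This rule found 44 genes of the 50686 in the table. Values of expression had no part in it. By the class of collagen that they form, 11 chains are fibrillar, 9 are FACIT (fibril-associated collagens with interrupted helices), 6 are beaded filament, 3 are network, 6 are basement membrane, 2 are multiplexin, 4 are transmembrane, 1 is anchoring fibril, and 2 belong to none of these. RNA-Seq was performed on 3 groups of 3 libraries each. The control group was MC3T3-E1, an established mouse osteoblast line, without the compound. The SB216763 group was the same line after 14 days with 10 μM SB216763, a compound that inhibits GSK3 kinases. The third group was mouse pulmonary endothelial cells (ECs), which received no treatment and were isolated by FACS. The strain and age of the mice behind the ECs, and the time in culture of the control osteoblasts, are not given in the sources used here. The labels do not say whether libraries of a group came from separate cultures or animals, so p-values measure the spread between these libraries, which may be technical.

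Collagens are extracellular proteins whose chains wind around each other into a rod-like helix. Fibrillar collagens pack into the cross-linked fibers that give bone, tendon, and skin their strength, and type I collagen is the main protein of the bone matrix that osteoblasts lay down. FACIT collagens sit on the surface of these fibers, and type VI collagen forms beaded filaments around cells. Type IV collagen forms the sheet of the basement membrane, on which endothelial cells rest, and the multiplexins are found in the same sheets.

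The values below are CPM (counts relative to the library total, as scaled by the TMM method of edgeR), and n = 3 libraries per group throughout. The libraries held between 30990107 and 68946333 counts. A level of 3 counts, the least that was read as present, corresponded to between 0.0435 and 0.0968 CPM, and this covers counting error only. Of the 44 chains, 34 passed the filter on low counts and were tested among 15531 genes. The other 10 (Col4a3, Col6a4, Col6a6, Col9a1, Col10a1, Col19a1, Col22a1, Col25a1, Col26a1, and Col28a1) had at most 18 counts in any library, and Col9a1, a chain of type IX collagen, had 0 counts in all 9. A gene was called when it differed by 2 or more on the log2 scale (4-fold) with a false discovery rate (FDR, the Benjamini-Hochberg adjusted p of edgeR's quasi-likelihood test) under 0.01. A second reading used the FDR alone. "Rose" and "fell" are used for chains with an FDR under 0.01.

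Control replicate 2 was lower in collagen chains than the other controls. Of the 25 chains with a mean of at least 10 CPM in 1 group, 24 had at least 1 CPM in this library, and their median log2 ratio to the other control replicates was -0.19. The same measure was 0.16 and 0.09 in the other controls and between -0.03 and 0.05 in the treated and EC libraries. Over all tested genes with a mean of at least 10 CPM in controls, those with more than 8 kb of exon had a median log2 ratio of -0.10 in this library and those with less than 2 kb one of 0.10. For the short genes SB216763 replicates 2 and 3 deviated by as much, at 0.11 and -0.10. Without this library the counts of called chains were 8 lower and 2 higher for SB216763-treated against control osteoblasts, the same as with it. The group labels were checked against marker genes. Of 8 osteoblast markers, 7 were called lower in ECs than in control osteoblasts, beside 9.87% of all tested genes. All 8 endothelial markers (Cdh5, Pecam1, Kdr, Tie1, Tek, Emcn, Nos3, and Cldn5) were called higher in ECs than in control osteoblasts, beside 13.5% of all tested genes. The summed level of these markers was between 6638 and 6809 CPM in ECs, between 2.60 and 3.47 CPM in control osteoblasts, and between 2.68 and 3.04 CPM in SB216763-treated osteoblasts. Between treated and control osteoblasts, 0 of the 8 passed edgeR's test by either reading. Of all tested genes, 5.84% were called lower and 3.81% higher, and 32.0% and 32.9% passed by FDR alone. Of the 8 markers, 0 were under an unadjusted p of 0.05, and 0 were called by limma-voom or DESeq2. Some had very few counts in osteoblast libraries (Cldn5 0 to 5, Tek 2 to 6), so only large changes were detectable for them.

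The promoters of 3 genes are shown. Col3a1 and Col8a1 were chosen for the largest falls among the fibrillar and the network chains after SB216763 treatment, and Col20a1 because it was called higher. Each window is the 250 bases before the RefSeq start (GRCm38.p6), read 5′ to 3′ on the strand of the gene. The Col3a1 window is chr1:45311288-45311537 on the plus strand, the Col8a1 window is chr16:57754738-57754987 on the minus strand, and the Col20a1 window is chr2:180986285-180986534 on the plus strand.
Col3a1: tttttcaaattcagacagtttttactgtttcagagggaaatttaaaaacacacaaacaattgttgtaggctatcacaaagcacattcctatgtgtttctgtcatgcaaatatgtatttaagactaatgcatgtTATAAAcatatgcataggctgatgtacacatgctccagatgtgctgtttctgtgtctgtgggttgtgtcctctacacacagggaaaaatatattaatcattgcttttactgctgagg
Col8a1: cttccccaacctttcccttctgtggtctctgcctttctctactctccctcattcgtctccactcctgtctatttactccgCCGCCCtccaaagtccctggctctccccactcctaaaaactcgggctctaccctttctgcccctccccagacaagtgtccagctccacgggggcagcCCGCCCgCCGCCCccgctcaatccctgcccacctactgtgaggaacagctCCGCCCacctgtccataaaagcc
Col20a1: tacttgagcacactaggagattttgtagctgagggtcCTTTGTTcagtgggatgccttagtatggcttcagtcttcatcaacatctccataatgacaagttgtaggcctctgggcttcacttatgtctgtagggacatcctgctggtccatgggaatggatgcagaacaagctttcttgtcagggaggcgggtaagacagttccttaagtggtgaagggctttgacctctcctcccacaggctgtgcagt
Capitals mark matches to any of 4 motifs, searched on both strands, and no motifs overlapped in these windows. The CCAAT box was searched by those letters. GGGCGG was the word for the GC box, and for the TATA box the word was TATAAA. The word for TCF/LEF factors was CTTTG followed by 2 bases that are each adenine or thymine. In Col3a1 the match was TATAAA, from 117 to 112 bases before the start. In Col8a1 there were 4 GC boxes, all on the opposite strand and therefore printed as CCGCCC, and the nearest ended 18 bases before the start. In Col20a1 the match was CTTTGTT, from 213 to 207 bases before the start, in a window that also holds an exon of the GENCODE gene BX649560.1. RefSeq promoters were found for 35 of the 44 chains. Of these, 21 (60.0%) held a GC box, against 35.4% of all 27025 genes with a promoter. For the others the shares were 37.1% against 37.5% for CCAAT, 14.3% against 14.3% for TATAAA, and 7 of 35 against 16.8% for the TCF/LEF words. These are descriptions of letters in the windows, and binding was not measured.

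The first comparison was SB216763-treated against control osteoblasts. Of the 34 tested chains, 8 were called lower (Col1a1, Col1a2, Col3a1, Col5a2, Col8a1, Col12a1, Col18a1, and Col24a1), beside 5.84% of all tested genes. Another 2 were called higher (Col6a5 and Col20a1), beside 3.81% of all tested genes, and 24 were not called. By FDR alone, 18 fell and 7 rose, beside 32.0% and 32.9% of all tested genes. The libraries of both groups did not overlap for 20 chains that were lower and 8 that were higher in treated cells, beside 35.9% and 37.3% of all tested genes. The median log2 fold change was -0.58 over the 34 chains and 0.01 over all tested genes. In bulk RNA, fewer cells of a type and less RNA per cell cannot be told apart.

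**Figure D1:**
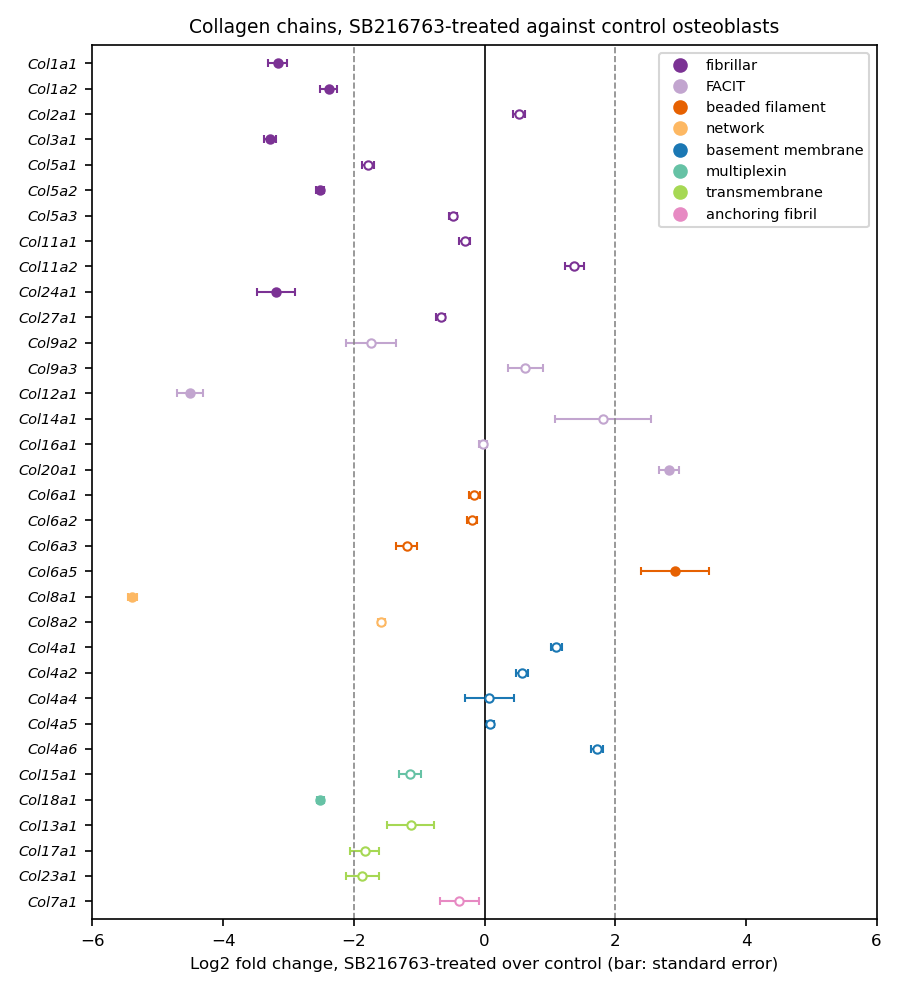
Log2 fold change of each of the 34 tested collagen chains in SB216763-treated over control osteoblasts (x axis), by gene (y axis) and colored by class, with bars for the standard error. Filled points were called and open points were not, dashed lines mark a log2 fold change of 2 in each direction, and the called points run from -5.39 for Col8a1 to 2.91 for Col6a5.

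Among the 11 fibrillar chains, all of which were tested, 5 were called lower and 0 higher by edgeR, limma-voom, and DESeq2 alike. Over all tested genes, edgeR called 5.84% lower and 3.81% higher. By edgeR's FDR alone 9 fell and 2 rose, beside 32.0% and 32.9% of all tested genes (9 and 2 also at an unadjusted p under 0.05). The median log2 fold change of the 11 chains was -1.78. Col1a1 (chromosome 11, 94936224 to 94953042 in GENCODE M21 on GRCm38) encodes the alpha 1 chain of type I collagen. It was at 27978, 19466, and 26055 CPM in the control libraries and 2666, 2705, and 2820.1 CPM in the treated libraries. The treated libraries agreed closely and lay far below the lowest control, and the log2 fold change was -3.17 (standard error 0.14, FDR = 9.31e-12). Col1a2 (chromosome 6, 4504814 to 4541544) encodes the alpha 2 chain, the partner of Col1a1 in the same molecule. It went from 30647, 23819, and 28985 CPM to 5239, 5357, and 5362 CPM (log2 fold change -2.39, standard error 0.13, FDR = 9.19e-11). The fall of Col1a1 was thus the larger one of this pair.

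Col3a1 encodes type III collagen, which forms fibers with type I in soft tissue and vessel walls. It was at 5533, 4797, and 5256 CPM in controls and at 538, 544, and 514 CPM after treatment, a fall to about the same degree as for Col1a1 (log2 fold change -3.29, standard error 0.09, FDR = 1.89e-14). Its neighbor Col5a2, which starts on the opposite strand of chromosome 1 and ends 24614 bases from the end of Col3a1, encodes a chain of type V collagen, a minor collagen inside type I fibers. The levels of Col5a2 were 3723, 3309.5, and 3559 CPM in controls and 617, 628, and 599 CPM after treatment (log2 fold change -2.52, standard error 0.06, FDR = 2.62e-15). Both neighbors were called lower, without overlap of the libraries. Col5a1, the other main chain of type V, went from 2561, 1844, and 2404 CPM to 652, 647, and 682 CPM. Its log2 fold change of -1.78 (standard error 0.09, FDR = 4.62e-11) was short of the fold threshold. Col24a1, a minor fibrillar chain, was much less abundant. It had 126, 123, and 69 counts in controls and 5, 7, and 14 counts after treatment, and was called lower at a log2 fold change of -3.19 (standard error 0.29, FDR = 6.56e-08).

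The remaining fibrillar chains moved less. Col5a3, another type V chain, went from between 105 and 123 CPM to between 79.4 and 86.5 CPM (log2 fold change -0.48). Col27a1, a chain known from cartilage, went from between 55.8 and 61.2 CPM to between 33.9 and 40.7 CPM (log2 fold change -0.67). For Col11a1, a type XI chain, the log2 fold change was -0.30 (FDR = 0.00526), but the lowest control at 238 CPM lay below the highest treated library at 243 CPM, so the groups overlapped. Without control replicate 2 it was -0.44. Both fibrillar chains that rose, Col2a1 and Col11a2, are best known from cartilage. Cartilage chains did not all rise, since Col27a1 fell, as did Col11a1, the partner of Col11a2 in type XI collagen. Col2a1, the chain of type II collagen, went from 13.2, 12.1, and 13.6 CPM to 16.3, 17.9, and 21.7 CPM (log2 fold change 0.53, FDR = 1.00e-04), and Col11a2 went from 4.46, 3.44, and 4.30 CPM to 10.3, 8.13, and 13.1 CPM (log2 fold change 1.37, FDR = 3.97e-07). Chondrocyte markers were measured beside them. Of 5 markers, 3 were tested, and 1 was called lower and 0 higher, beside 5.84% and 3.81% of all tested genes. The one called was Matn3 (log2 fold change -7.89, with 1 count in each treated library). Sox9 had a log2 fold change of 1.11 and Comp one of -0.53 (FDR = 0.0460), and Acan and Cnmd were at or near 0. The summed level went from between 51.3 and 60.9 CPM to between 101 and 103 CPM. Without Sox9 it went from between 8.41 and 8.86 CPM to between 0.703 and 1.20 CPM. Their part in the result was not tested.

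**Figure D2:**
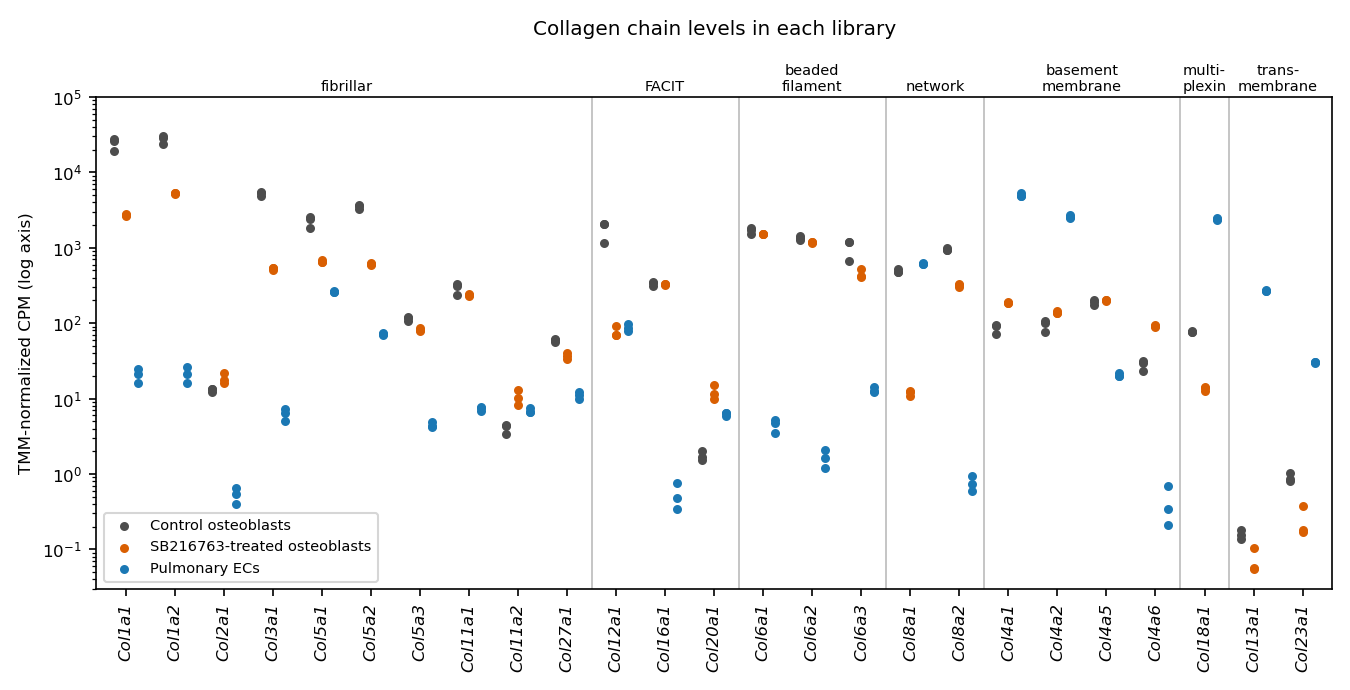
TMM-normalized CPM on a log axis (y axis) of the 25 chains with a mean of at least 10 CPM in 1 group (x axis, by class), with 1 point for each of the 9 libraries. Control osteoblasts lie far above treated osteoblasts for Col1a1, Col3a1, Col12a1, and Col8a1, and ECs lie highest for Col4a1, Col4a2, Col18a1, Col13a1, and Col23a1.

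Of the 9 FACIT chains, 6 were tested, and they split in direction, with a median log2 fold change of 0.30. Of these, 1 was called lower and 1 higher, beside 5.84% and 3.81% of all tested genes. Col12a1 encodes type XII collagen, which bridges neighboring fibers. It was at 2065, 1156, and 2058 CPM in controls and 70.7, 68.9, and 92.6 CPM after treatment. Control replicate 2 was the lowest of the controls here, and it was still above each treated library. The log2 fold change was -4.51 (standard error 0.19, FDR = 5.27e-12), and -4.74 without that library. Col20a1, a FACIT chain about which less is known, was called higher. Its levels were 1.68, 1.55, and 2.01 CPM in controls and 11.4, 9.85, and 14.9 CPM after treatment (log2 fold change 2.82, standard error 0.15, FDR = 7.76e-11). An exon of BX649560.1 on the same strand overlaps Col20a1 by 79 bases, so a part of these counts is uncertain. Col16a1, which encodes type XVI collagen, was at 350.5, 309.6, and 338 CPM in controls and 329, 328, and 325 CPM after treatment. The groups overlapped, and the log2 fold change was -0.02 (standard error 0.07, FDR = 0.770), or 0.18 (FDR = 0.0176) with scaling by library size only. Col9a2, a type IX chain, fell on 11 to 26 counts in controls and 3 to 5 counts in treated libraries (log2 fold change -1.74, FDR = 8.07e-04), Col9a3 had a log2 fold change of 0.63 (FDR = 0.0434), and Col14a1 was at or under 9 counts in every osteoblast library.

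The beaded filament class held abundant chains that were not called. Col6a1 encodes the alpha 1 chain of type VI collagen. It was at 1835, 1537, and 1697 CPM in controls and 1501, 1511, and 1532 CPM after treatment, so that each treated library lay just below the lowest control. The log2 fold change was -0.16 (standard error 0.08, FDR = 0.105), and 0.05 with scaling by library size only. Col6a2, the alpha 2 chain, is on the same strand of chromosome 10, 85161 bases away. It was at 1455, 1256, and 1349 CPM in controls and 1189, 1202, and 1162 CPM after treatment (log2 fold change -0.19, standard error 0.08, FDR = 0.0370, and 0.01 with scaling by library size only). The alpha 3 chain, Col6a3, which is the longest of the family, did fall. Its levels were 1207, 678, and 1210.3 CPM in controls and 422, 407, and 529 CPM after treatment (log2 fold change -1.19, standard error 0.16, FDR = 6.71e-06, and -1.42 without control replicate 2). Col6a5 was called higher at very low counts, with 1, 2, and 4 counts in controls and 12, 16, and 14 counts after treatment (log2 fold change 2.91, standard error 0.53, FDR = 1.94e-04).

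The network chain Col8a1 had the largest change of all tested chains in this comparison. Type VIII collagen is a short-chain collagen of vessel walls and of the membrane under the corneal endothelium. Col8a1 (chromosome 16, 57624258 to 57754737, with the GC boxes shown above before its start) was at 529.5, 477, and 484 CPM in controls and at 12.6, 12.3, and 10.7 CPM after treatment. The drop was 41.8-fold (log2 fold change -5.39, standard error 0.07, FDR = 1.24e-17). Col8a2, which encodes the other type VIII chain, went from 940.2, 1001, and 929.6 CPM to 321, 335, and 306 CPM. Its log2 fold change of -1.58 (standard error 0.06, FDR = 8.63e-13) was below the fold threshold, so the chains of this collagen moved by unequal amounts.

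Of the basement membrane chains, 5 of 6 were tested, and 0 were called by fold and FDR in edgeR, limma-voom, or DESeq2. EdgeR called 5.84% of all tested genes lower and 3.81% higher, and 0 of 5 chains is near those shares. By edgeR's FDR alone 3 rose (Col4a1, Col4a2, and Col4a6), beside 32.9% of all tested genes. The number was the same at an unadjusted p under 0.05. Col4a1 and Col4a2 encode the type IV chains found in nearly all basement membranes. They lie head to head on chromosome 8 and their first exons overlap by 22 bases. Col4a1 was at 95.5, 72.6, and 93.0 CPM in controls and 183, 184, and 190.2 CPM after treatment (log2 fold change 1.10, standard error 0.08, FDR = 6.78e-09). Col4a2 was at 106, 77.6, and 99.5 CPM in controls and 137, 138, and 146 CPM after treatment (log2 fold change 0.57, standard error 0.09, FDR = 2.31e-05). For both genes each treated library was above each control. Col4a6, a type IV chain of restricted tissues, had the largest rise of the class, from 29.9, 23.3, and 31.1 CPM to 90.2, 92.2, and 93.4 CPM (log2 fold change 1.72, standard error 0.09, FDR = 8.88e-11). Its neighbor Col4a5, which begins 1308 bases away on the opposite strand of the X chromosome, was at 175 to 203 CPM in controls and 205, 202, and 195 CPM after treatment. Those groups overlapped (log2 fold change 0.08, FDR = 0.188). Col4a4 had at most 21 counts in an osteoblast library (log2 fold change 0.07, FDR = 0.875).

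Among the multiplexins, Col18a1 was called lower and Col15a1 fell by FDR alone. Col18a1 encodes type XVIII collagen, from whose end endostatin is cut. It was at 78.7, 77.5, and 76.5 CPM in controls and 12.8, 14.1, and 13.9 CPM after treatment (log2 fold change -2.51, standard error 0.06, FDR = 2.75e-15). Col15a1 went from between 6.75 and 9.87 CPM to between 3.92 and 4.09 CPM (log2 fold change -1.13, FDR = 1.47e-05). The transmembrane chains and Col7a1, the chain of the anchoring fibrils of skin, were all under 3 CPM in osteoblasts. Of these, Col17a1 and Col23a1 fell (log2 fold changes -1.83 and -1.87). Col13a1 had 10, 10, and 4 counts in controls and 2, 4, and 2 counts after treatment (FDR = 0.0499), and Col7a1 did not pass either reading (FDR = 0.254).

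The amounts of collagen mRNA were then compared as shares. All 44 chains together took between 5.62% and 7.36% of the counts of the control libraries and 1.56%, 1.56%, and 1.62% of the treated libraries. The 3 EC libraries gave 1.15%, 1.13%, and 1.21%. The treated osteoblasts and the ECs were thus much closer to each other in this total than either was to the controls, with means of 1.58% ± 0.0344 and 1.16% ± 0.0410 against 6.66% ± 0.917 (SD), and the EC and treated libraries did not overlap. With counts divided by exon length, so that chains can be set beside each other, the makeup of that total differed between all 3 groups. Fibrillar chains made up 86.2% ± 0.730 of the collagen counts per kilobase in controls, 59.1% ± 0.201 after treatment, and 2.92% ± 0.0740 in ECs. The share of beaded filament chains was 7.64% ± 0.287 in controls and 28.9% ± 0.101 after treatment, and that of basement membrane chains 0.694% ± 0.0230 and 4.80% ± 0.0372. The summed level of the beaded filament chains was 635 ± 69.6 CPM per kilobase in controls and 526 ± 6.71 after treatment, while that of the fibrillar chains was 7183 ± 1075.3 and 1077 ± 17.7, so the larger share of beaded filament chains was not accompanied by a higher level. Basement membrane chains did have a higher level, 57.7 ± 6.44 against 87.5 ± 0.638 CPM per kilobase.

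**Figure D3:**
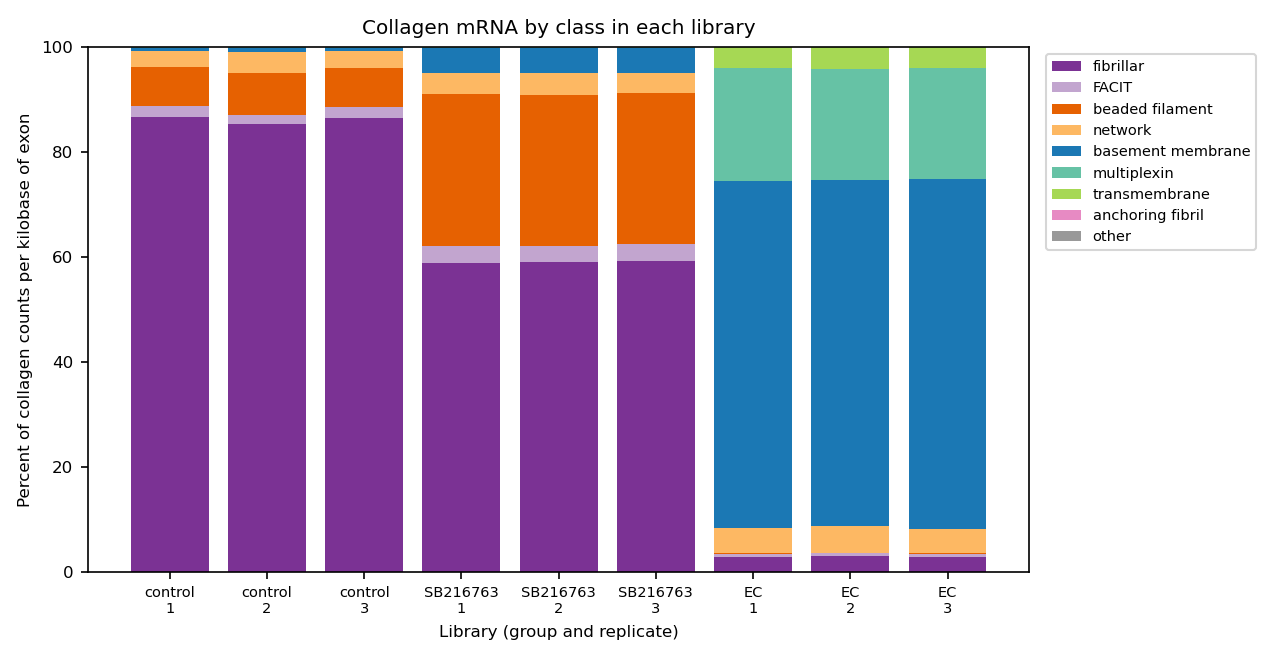
Percent of the collagen counts per kilobase of exon (y axis) that each class of chain made up in each of the 9 libraries (x axis), as stacked bars that add to 100%. Fibrillar chains fill 86.2% of the control bars on average and 59.1% of the treated bars, and basement membrane and multiplexin chains fill 66.2% and 21.3% of the EC bars.

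The leading chains took different shares. In controls, Col1a1 was 44.6% ± 1.98 of the collagen counts per kilobase, Col1a2 26.9% ± 0.409, and Col3a1 6.40% ± 0.502. After treatment, Col1a2 at 23.5% ± 0.166 and Col1a1 at 22.8% ± 0.382 were followed by Col6a1 at 19.0% ± 0.0610 and Col6a2 at 7.81% ± 0.218. The exon length used here is the union over all transcripts, which is long for some genes (12.4 kb for Col1a2, with a longest transcript of 5.35 kb), so ranks between genes depend on it, whereas fold changes of 1 chain between groups do not. With the longest transcript in its place, Col1a2 came first in controls as well, at 41.5% ± 0.353 before Col1a1 at 32.8% ± 1.67, and after treatment they were at 37.1% ± 0.186 and 17.2% ± 0.326. Col3a1 in controls and Col6a1 after treatment came next after these chains with either length.

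Chains of the same molecule were set beside each other within each library, as the log2 ratio of their counts per kilobase. The level and sign of a ratio depend on the exon length used, and differences between groups do not. With the longest transcript, Col1a2 was above Col1a1 in both osteoblast groups, as given above. The ratio of Col1a1 to Col1a2 was 0.73 ± 0.0865 in controls and -0.04 ± 0.0312 after treatment, a difference of -0.77, and the ranges of both groups did not overlap. For Col8a1 over Col8a2 the ratio was -1.75 ± 0.120 in controls, -5.56 ± 0.0808 after treatment, and 8.88 ± 0.302 in ECs. The difference between the osteoblast groups was -3.81, and the sign was the opposite in ECs. Col6a1 over Col6a2 was 1.25 ± 0.0241 in controls and 1.28 ± 0.0380 after treatment, with ranges that overlapped. Col6a1 over Col6a3, in contrast, was 2.21 ± 0.371 in controls and 3.20 ± 0.191 after treatment. Col4a1 over Col4a2, which share their start region, was -0.29 ± 0.0301 in controls, 0.23 ± 0.0190 after treatment, and 0.79 ± 0.00873 in ECs, so the order of the groups in this ratio was that of their Col4a1 levels. Col11a1 over Col11a2 was 5.27 ± 0.0512 in controls and 3.63 ± 0.310 after treatment.

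**Figure D4:**
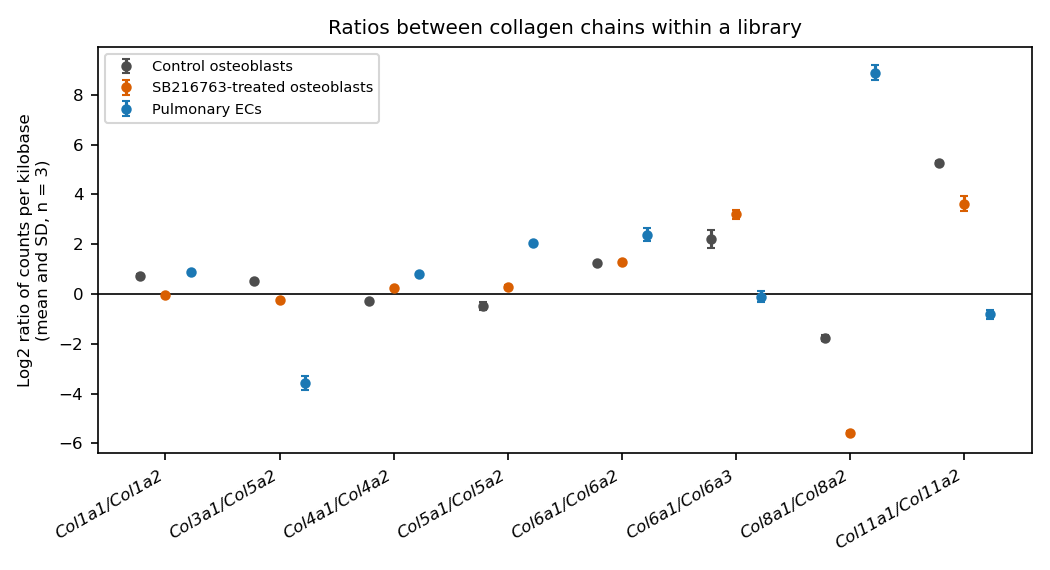
Log2 ratio of the counts per kilobase of exon of 2 chains (y axis) in 8 pairs (x axis), as the mean and SD of 3 libraries per group. The level and sign of a ratio depend on the exon length used, and differences between groups do not. The ratio of Col8a1 to Col8a2 spans the widest range, from -5.56 in treated osteoblasts to 8.88 in ECs, while that of Col6a1 to Col6a2 lies at 1.25 and 1.28 in the osteoblast groups.

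The ECs were compared with each osteoblast group next. Both comparisons use the same EC libraries, and the comparison with controls also shares its controls with the one above, so their values are given side by side and not correlated. Against controls, 20 of the 34 tested chains were called lower in ECs, beside 9.87% of all tested genes, and 7 were called higher (Col4a1, Col4a2, Col7a1, Col13a1, Col14a1, Col18a1, and Col23a1), beside 13.5% of all tested genes. By FDR alone 21 were lower and 11 higher, beside 37.9% and 39.0% of all tested genes, and the libraries did not overlap for 22 lower and 12 higher chains, beside 41.4% and 42.6%. Against treated osteoblasts, 18 were called lower and 8 higher (the same 7 and Col8a1), beside 10.3% and 15.0% of all tested genes. By FDR alone 22 were lower and 8 higher, beside 38.3% and 40.3%, and the libraries did not overlap for 22 lower and 10 higher chains, beside 41.6% and 43.8%. The median log2 fold change of the tested chains was -4.21 against controls and -2.91 against treated cells, with medians over all tested genes of 0.01 and 0.02. These medians include Col6a5, which had 0 counts in ECs. With its EC level set to 3 counts, the medians were -3.77 and -2.51. That EC level lies above the mean of Col6a5 in controls (0.0637 CPM), so -3.77 is not a bound.

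Fibrillar chains were low in ECs. Against controls, 10 of 11 were called lower, beside 9.87% of all tested genes, and Col11a2 (log2 fold change 0.78) was not called. Col1a1 was at 15.9, 24.8, and 21.1 CPM in ECs, with log2 fold changes of -10.22 (standard error 0.20) against controls and -7.05 (standard error 0.17) against treated cells. For Col3a1 the EC libraries were at 5.04, 7.28, and 6.39 CPM, with log2 fold changes of -9.71 and -6.42. Col5a1 remained more abundant in ECs than the other fibrillar chains. It was at 262, 255, and 268 CPM in ECs (log2 fold changes -3.12 against controls and -1.33 against treated cells, standard error 0.09 for the second, FDR = 8.64e-10), and Col5a2 was at 71.6, 69.5, and 74.3 CPM (-5.62 against controls). Type VI chains were far lower than in osteoblasts. Col6a1 was at 3.48, 4.69, and 5.21 CPM (log2 fold change -8.57 against controls, standard error 0.12, and -8.41 against treated cells), and Col6a2 at 1.19, 2.10, and 1.64 CPM (log2 fold changes -9.71 and -9.52). Col16a1 was at 0.343 to 0.764 CPM, with log2 fold changes of -9.27 and -9.25. Col12a1, at 79.7, 86.5, and 96.5 CPM in ECs, was near the treated osteoblasts, with 2 EC libraries within their range and 1 above it. The libraries of these groups overlapped and the log2 fold change was 0.18 (standard error 0.17, FDR = 0.344).

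The most abundant chains in ECs were Col4a1, Col4a2, and Col18a1, followed by Col8a1 and Col13a1 at 4.86% ± 0.248 and 3.67% ± 0.0963 of the collagen counts per kilobase. Col4a1 reached 4933, 4865, and 5261 CPM (log2 fold change 5.85 against controls, standard error 0.10, and 4.76 against treated cells, standard error 0.09). Col4a2 reached 2537, 2481, and 2715 CPM, with log2 fold changes of 4.77 and 4.20. Together they made up most of the collagen counts per kilobase in ECs, 41.8% ± 0.178 and 24.2% ± 0.234. The other type IV chains went the opposite way. Col4a5 was at 21.8, 19.6, and 19.8 CPM in ECs (log2 fold changes -3.21 and -3.30), and Col4a6, which had risen in treated osteoblasts, was at 0.208 to 0.700 CPM (log2 fold changes -6.14 against controls and -7.86 against treated cells). Col18a1 was at 2385, 2329, and 2508 CPM in ECs, 31.0-fold above controls and 177-fold above treated osteoblasts (log2 fold changes 4.96 and 7.47), and made up 21.3% ± 0.112 of the collagen counts per kilobase. Its fellow multiplexin Col15a1 was at 0.122 to 0.602 CPM, called lower against both osteoblast groups.

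Col13a1, which encodes a collagen that spans the cell membrane, was the chain with the largest difference. It was at 268, 271, and 276 CPM in ECs and at 2 to 10 counts per osteoblast library, with log2 fold changes of 10.68 (standard error 0.08) against controls and 11.81 (standard error 0.10) against treated cells. Col23a1, another transmembrane chain, was at 30.1, 30.6, and 30.9 CPM in ECs (log2 fold changes 5.07 and 6.94). Col8a1 stood at 607, 624, and 605 CPM in ECs, close above the controls (log2 fold change 0.30, standard error 0.06, FDR = 1.35e-04) and 51.5-fold above the treated osteoblasts (log2 fold change 5.69, standard error 0.07). Col8a2 was at 0.733, 0.944, and 0.602 CPM (log2 fold change -10.32 against controls, standard error 0.10). Smaller calls were Col7a1 (log2 fold changes 2.15 and 2.54) and Col14a1 (5.56 and 3.75, on 53 to 92 counts in ECs). Col6a5 had 0 counts in all 3 EC libraries.

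The enzymes and chaperones that make collagen were counted as a list. Of 37 names, 36 were in the table and 33 were tested. In treated against control osteoblasts 5 were called lower and 2 higher, beside 5.84% and 3.81% of all tested genes. By FDR alone 18 fell and 10 rose, beside 32.0% and 32.9%, so the share of the list that rose was near that of all genes. The median log2 fold change was -0.26, and 0.01 over all tested genes. Those called lower were Lox, which cross-links fibers (1312 ± 64.8 to 148 ± 7.77 CPM, log2 fold change -3.15), its relative Loxl4 (-2.62), Sparc, a collagen-binding matrix protein (9659 ± 385 to 1956 ± 140 CPM, -2.30), Pcolce2, an enhancer of propeptide removal (-7.98, with 1 to 4 counts in each treated library), and the protease Tll1 (-4.83, with 1 to 3 counts in each treated library). Called higher were Adamts14, which removes propeptides (8.29 ± 0.877 to 64.7 ± 3.83 CPM, log2 fold change 2.97), and P3h2, a prolyl hydroxylase (2.42). Serpinh1, the collagen chaperone HSP47, fell without a call from 3063 ± 138 to 1215 ± 81.8 CPM (log2 fold change -1.33). In ECs against controls 10 were called lower and 3 higher, beside 9.87% and 13.5% of all tested genes.

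The collagen receptors and the collagen-degrading proteases moved in other patterns. Of 8 tested receptors, 2 were called lower in treated osteoblasts (the integrin subunits Itga1, log2 fold change -2.77, and Itga10, -2.17) and 1 higher, Mrc2, which takes up collagen fragments (229 ± 24.6 to 2492 ± 72.5 CPM, log2 fold change 3.44, standard error 0.09, FDR = 6.08e-15). The receptor counts stand beside 5.84% of all tested genes called lower and 3.81% called higher. Of 7 proteases, 5 were tested, all 5 rose by FDR alone, beside 32.9% of all tested genes, and 2 were called higher, beside the same 3.81%. Mmp13, a collagenase, went from 10.7 ± 0.506 to 601 ± 18.6 CPM (log2 fold change 5.80, standard error 0.08, FDR = 1.63e-17), and Mmp14, which is anchored in the membrane, from 581 ± 20.6 to 2659 ± 105 CPM (log2 fold change 2.19). In ECs all 5 were called lower than in controls, beside 9.87% of all tested genes, and their median log2 fold change was -3.90.

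Markers of other cells moved beside these results. Of the pericyte and smooth muscle markers, 3 of 6 tested were called lower in treated osteoblasts (Acta2, Cspg4, and Cnn1), beside 5.84% of all tested genes. Cnn1 was called on very low counts, 4 to 17 in controls and 0 to 3 after treatment. Pdgfrb, a receptor of pericytes and other mesenchymal cells, rose from a mean of 253 CPM to 746 ± 7.84 CPM (log2 fold change 1.56, FDR = 5.08e-13). The summed level went from between 3140 and 3286 CPM to between 902 and 912 CPM, and without Acta2 from between 272 and 336 CPM to between 757 and 774 CPM. Of 8 osteoblast markers, 3 were called lower (Sp7, Alpl, and Ibsp) and 2 higher (Spp1 and Dmp1), beside 5.84% and 3.81% of all tested genes. By FDR alone 5 fell and 2 rose, beside 32.0% and 32.9% of all tested genes. The sum of the 8 markers went from between 833 and 902 CPM to between 4576 and 4903 CPM, and without Spp1 from between 619.9 and 699 CPM to between 226 and 230.0 CPM. Of the fibroblast markers, 4 of 6 were tested, and 3 rose and 1 fell by FDR alone, beside 32.9% and 32.0% of all tested genes. Only 1 was called higher, beside 3.81% of all tested genes. Fap was the one called (log2 fold change 3.63, on 3 to 8 counts in controls and 38 to 69 after treatment), Pdgfra rose from 33.3 ± 2.08 to 66.9 ± 0.746 CPM, Lum had a log2 fold change of 0.72, and Dcn had one of -0.32. Their summed level overlapped, at 327 to 376 CPM in controls and 341 to 382 CPM after treatment, and without Dcn it was 82.2 to 93.5 CPM and 148 to 161 CPM, with Tcf21 at 0 in both. Of the hematopoietic markers, 2 of 4 were tested and moved in opposite directions, Lyz2 from 26.0 ± 1.15 to 7.04 ± 0.831 CPM (log2 fold change -1.88) and Cd68 from 0.532 ± 0.194 to 1.62 ± 0.0821 CPM (log2 fold change 1.63, FDR = 1.66e-06). All 4 summed to between 25.9 and 27.6 CPM in controls, 8.25 to 9.82 CPM after treatment, and 56.2 to 58.2 CPM in ECs, with Cd3e at 0 in all 3 groups. Most of the EC sum was Cd68 at 46.6 ± 0.985 CPM, with Lyz2 at 10.4 ± 0.321 and Ptprc at 0.0915 ± 0.0822 CPM. Epithelial markers summed to at most 0.278 CPM in any library, and adipocyte markers to at most 0.258 CPM in osteoblasts and to between 19.7 and 20.5 CPM in ECs. Most of that EC sum was Pparg at 17.8 ± 0.471 CPM, with Fabp4 at 2.24, Plin1 at 0.0306, and Adipoq at 0 CPM. The part of these cells in the collagen results was not tested.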

How the data were processed

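RNA-Seq of control MC3T3-E1 osteoblasts, SB216763-treated MC3T3-E1 osteoblasts, and mouse pulmonary ECs was analyzed, with 3 libraries of each. The authors deposited counts per gene, whole numbers without normalization, in a table of 50686 Ensembl identifiers. The submitters' processing notes name STAR 2.5.3a and the build GRCm38. Which annotation and strand setting were used is not given in the sources used here, so counts of overlapping and antisense genes are uncertain. Every column was matched to a library by its name. The treatment text of the labels is identical for all samples, so groups came from the titles and treatment entries. Symbols were found for 50376 identifiers in GENCODE M21, from which coordinates and exon lengths were also taken, and promoters are from RefSeq. Protein sequences were not used here.

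The counts were fitted in R 4.3.3 with edgeR 4.0.16 (filterByExpr with 3 groups, TMM, quasi-likelihood test, all 9 libraries in one fit, prior count 0.125), and p-values were adjusted over 15531 genes. Standard errors were the absolute log2 fold change over the root of edgeR's F statistic. The biological coefficient of variation was 0.0554. A chi-square statistic per gene between replicates, near 1 for counting error alone, ranged from 3.01 to 115, so no library was counted as a duplicate. Same-numbered libraries did not deviate together in each pair (correlations from -0.0392 to 0.123), so the fit has no replicate block. The tests were tried on simulated counts with known changes. Shares, composition, and chain ratios are values per library without a test. Results were also computed with limma-voom (version 3.58.1 of limma) and DESeq2 1.42.0, with other normalizations, filters, thresholds, prior counts, and lengths, with a replicate block, and without each library in turn.

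The chains, classes, and lists were chosen with earlier results of these data known. All chains may be named, those with a mean of at least 10 CPM in 1 group with full values, and genes of the collagen lists where they were called after treatment. Serpinh1, Adamts2, Loxl1, Loxl3, Sox9, and the chains shown with promoters were chosen after their values were seen. One listed name, Tango1, is an older name of Mia3 and has no row of its own.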

Additional observations from a re-analysis of the deposited data

How the results depend on the processing

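With a log2 fold change of at least 1 in place of 2, 15 chains were lower and 5 higher in treated against control osteoblasts. The share of all tested genes at this looser threshold was not computed, so these counts cannot be set beside it. The counts of called chains under the other alternatives stayed within 1.5 times those reported. Leaving out each library in turn gave 8 to 9 lower and 2 higher for treated against control osteoblasts, 20 to 22 lower and 7 to 8 higher for ECs against controls, and 17 to 19 lower and 8 to 9 higher for ECs against treated osteoblasts. Col23a1 was called lower in treated cells without SB216763 replicate 3 (log2 fold change -2.33) and Col17a1 without SB216763 replicate 2 (-2.09). In ECs against treated cells, Col24a1 lost its call without SB216763 replicate 3 (-2.21) and Col9a2 without EC replicate 3 (-2.93), and both lost it with a prior count of 2 (-1.81 and -1.57). Against controls, Col6a5 was called lower in ECs without control replicate 1 (-4.57). Some of these fits also tested Col19a1 and Col6a4, which the filter had removed. The replicate numbers share no source in the labels, and a fit with the replicate number as a block called 8 lower and 2 higher for treated cells, 20 and 7 for ECs against controls, and 18 and 8 for ECs against treated cells, the counts reported.

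Scaling by library size only moved the median log2 fold change of all tested genes from 0.01 to 0.22 for treated against control osteoblasts and from 0.01 to 0.13 for ECs against controls. Under it the log2 fold changes of Col6a1, Col6a2, and Col16a1 in treated cells were 0.047, 0.012, and 0.18, with signs opposite to those reported, and Col20a1 passed the fold threshold in ECs against controls. Over the fits that each lack 1 library, log2 fold changes in treated cells ran from -0.080 to 0.011 for Col16a1, above 0 without control replicate 1, and from -0.11 to 0.32 for Col4a4, below 0 without control replicate 3 or SB216763 replicate 1. With the TMM effective library size the share of all counts in collagen chains after treatment was 1.48%. With the length of the longest transcript, fibrillar chains made up 88.8% in controls and 66.3% after treatment, and basement membrane chains 0.488%, 3.53%, and 62.1% in controls, treated cells, and ECs. Without Col1a1 and Col1a2, fibrillar chains made up 51.4%, 23.8%, and 2.63% in the same order, and basement membrane chains 2.44% in controls and 8.95% after treatment. Depth limits the chains under about 20 counts per library, for which only large changes were detectable.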
